A study of Rattus norvegicus with 9 samples.

Results

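HCN channels, the pacemaker channels, are pores of 4 subunits that open when the membrane becomes more negative and pass an inward current of sodium and potassium known as Ih. Cyclic AMP binds the tail of each subunit and makes opening easier, so receptors, adenylyl cyclases and phosphodiesterases that set cyclic AMP also set the current. In sensory neurons Ih bears on how readily and how often a cell fires. The subunit encoded by Hcn2 responds strongly to cyclic AMP and is known for its part in firing of nociceptive neurons, that of Hcn3 responds little to cyclic AMP, and that of Hcn4 responds strongly, opens slowly and is best known from the sinoatrial node of the heart. Transcripts of Hcn2, Hcn3 and Hcn4 are described here in rat dorsal root ganglion (DRG), the ganglion that holds the cell bodies of sensory neurons. The genes were taken from the deposited expression table by symbol, 3 of 20194 genes. All 3 were among the 14305 genes that reached 1 FPKM in at least 1 library and were tested, where FPKM is a level scaled to transcript length and to the size of the library.

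DRG RNA of male Sprague-Dawley rats aged 8 to 10 weeks was sequenced in 9 libraries, 3 per group. The sham group had a sham operation, and the SNI group had a spared nerve injury, in which branches of the sciatic nerve are cut and 1 branch is left intact. The SNI + G15 group had the same injury and received G15, an antagonist of the G protein-coupled oestrogen receptor GPER, through an intrathecal catheter placed on day 5 after injury. The paper's results give 1 μl of G15 at 1.8 μg/μl, and 24 h is given as the time of drug exposure. The labels give 2% DMSO for the libraries of all 3 groups, and the paper names other DMSO strengths. The sham and SNI libraries are marked as controls for G15. Beyond the DMSO value, whether these rats received an injection of vehicle is not stated for the libraries. No group of sham rats given G15 was analysed here, and the catheter, the injection and G15 itself cannot be told apart in the comparison of SNI + G15 with SNI. Whether a library is 1 rat or a pool is not given in the labels. The paper's methods name 3 rats for the groups sequenced, whereas its supplementary count of animals lists more rats for RNA sequencing. The p-values therefore measure the spread between libraries.

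The libraries held between 18484557 and 18756736 estimated reads each. RNA of neurons was present, since all 8 pan-neuronal markers were measured and their summed level lay between 7867 and 9197 FPKM in the 9 libraries. Markers of other cells were present too, as with 5085 to 5203 FPKM for the summed Schwann cell markers in sham. The injury labels were borne out by 6 nerve injury genes, whose summed level was 172.5 to 186.6 FPKM in sham and 1526 to 1564 FPKM in SNI libraries. Gper1, which encodes the target of G15, stayed under 1 FPKM in every library and was not tested. SNI + G15 replicate 3 stood apart from the other libraries of its group: over all genes the chi-square of its counts per degree of freedom was 9.24 against replicate 1 and 8.93 against replicate 2, while the other 7 pairs of replicates gave 2.70 to 4.92. Fold changes of the members, their ratios and the count over the related lists are also given without it, and the other values of that group include it.

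Of the 3 genes, the RefSeq promoter table used here held Hcn2. Its 250 bases upstream of the transcription start lie at chr7:10639458-10639707 of GRCr8, on the minus strand. They are shown 5′ to 3′ because Hcn2 was the only member held there, with each GC box (GGGCGG, read on both strands) in capitals.
Hcn2 upstream: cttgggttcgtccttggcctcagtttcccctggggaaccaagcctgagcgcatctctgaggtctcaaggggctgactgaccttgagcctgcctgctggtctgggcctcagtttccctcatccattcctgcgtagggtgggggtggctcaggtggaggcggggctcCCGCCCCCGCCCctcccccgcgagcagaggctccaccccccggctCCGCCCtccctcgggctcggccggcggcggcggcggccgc
There were 3 GC boxes, 2 of them side by side in 1 run of capitals with no overlap, and 30.5% of the 33469 rat promoters in the table held at least 1 in their own 250 upstream bases. The GC content was 71.6%, against a median of 51.2% over the table, and 93.6% of promoters were lower. The letters of an AP-1 site (TGANTCA, both strands) and of the core of a cyclic AMP response element (CGTCA, both strands) did not occur in this window, and 6.34% and 18.2% of promoters held them. These matches describe letters and not bound sites.

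Hcn2 was by far the most abundant of the 3 transcripts and the one that fell. Its level was 72.1, 72.6 and 84.2 FPKM in the sham libraries, 56.4, 54.4 and 59.5 FPKM in the SNI libraries, and 48.7, 51.1 and 44.8 FPKM in the SNI + G15 libraries. Every SNI library lay below every sham library, and every SNI + G15 library lay below every SNI library, so the order of levels was sham, SNI, SNI + G15 without overlap between neighbours. Lack of overlap, in either direction, was common among genes tested. It held for 53.9% of them in SNI against sham and for 38.3% in SNI + G15 against SNI. The group means were 76.3 ± 6.80, 56.8 ± 2.54 and 48.2 ± 3.18 FPKM (SD, n = 3 each).

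Hcn3 encodes the subunit that responds least to cyclic AMP. Its level was 12.6, 11.2 and 12.5 FPKM in sham, 13.0, 13.6 and 13.3 FPKM in SNI, and 13.5, 13.4 and 11.4 FPKM in SNI + G15 libraries. The SNI libraries lay just above all sham libraries, whereas the SNI + G15 libraries ran across the range of both other groups, with the low value in replicate 3. The means were 12.1 ± 0.787, 13.3 ± 0.280 and 12.8 ± 1.17 FPKM (SD, n = 3 each), and none of the neighbours in this order differed by the test across genes.

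Hcn4 was the least abundant of the 3. Its level was 3.40, 3.12 and 3.59 FPKM in sham, 3.10, 2.98 and 4.04 FPKM in SNI, and 3.99, 3.72 and 3.65 FPKM in SNI + G15 libraries. Sham and SNI overlapped, with 1 SNI library above and 2 below all sham libraries, and the SNI + G15 libraries lay above all sham libraries. The means were 3.37 ± 0.236, 3.37 ± 0.580 and 3.79 ± 0.180 FPKM (SD, n = 3 each). These levels rested on 221 to 298 estimated reads per library, against 490 to 594 for Hcn3 and 2131 to 3965 for Hcn2. Ranked by mean FPKM in sham, Hcn2 was gene 1202, Hcn3 gene 6048 and Hcn4 gene 10516 of the 14305 tested. Each gene had 1 transcript in the table, so a change between isoforms could not be read from it. Their estimated reads were not whole (beyond 0.05 of a read) in 6, 7 and 7 of the 9 libraries for Hcn2, Hcn3 and Hcn4, which marks a split of some reads with other features. For Hcn2 these were every SNI and every SNI + G15 library and no sham library. Its level is thus uncertain where reads were split, and the split followed the injury. What the split did to the fall of Hcn2 was not tested.

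**Figure D1:**
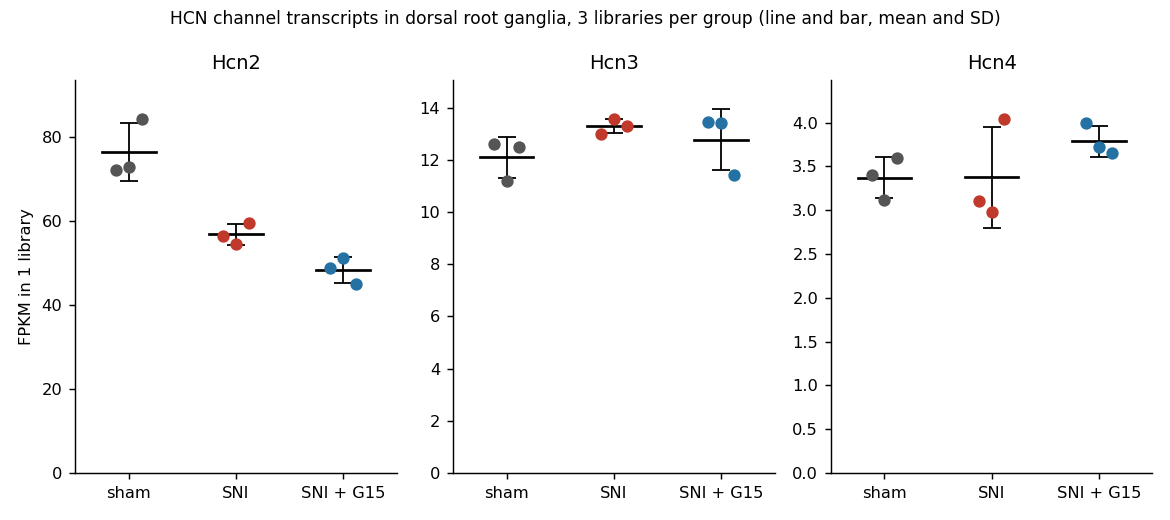
Level of Hcn2, Hcn3 and Hcn4 in FPKM (vertical axes, each from 0) in every library of the sham, SNI and SNI + G15 groups; points are libraries in replicate order, lines are means and bars are SD (n = 3). Hcn2 steps down from group to group without overlap, while the points of Hcn3 and Hcn4 stay within a narrow range.

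The first comparison, SNI against sham, asked what nerve injury did to these transcripts. Hcn2 fell by 0.46 on the log2 scale (SE 0.063, 95% interval -0.60 to -0.32), a level 27.1% lower in SNI (edgeR quasi-likelihood test, adjusted p = 0.000173). Of all genes tested, 22.4% were called lower and 23.3% higher in this comparison, and 7.0% had a lower log2 fold change than Hcn2. Hcn2 was thus 1 of many genes that fell, and toward the lower end of the distribution of changes. Hcn3 differed by 0.11 (SE 0.058, interval -0.02 to 0.24, adjusted p = 0.158), which did not pass the test although its groups did not overlap. Groups without overlap were found for 53.9% of all genes tested. Hcn4 differed by -0.03 (SE 0.113, interval -0.28 to 0.22, adjusted p = 0.861), an interval that excludes a fall as large as that of Hcn2. Over all genes the median log2 fold change was 0.001.

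The second comparison, SNI + G15 against SNI, asked what giving the GPER antagonist did in the injured ganglion. Hcn2 fell further, by 0.22 (SE 0.056, interval -0.35 to -0.10), a level 14.3% lower with G15 (adjusted p = 0.0313). Genes called lower were 7.25% of those tested and genes called higher 7.98%, and 11.3% of genes had a lower log2 fold change than Hcn2. Without SNI + G15 replicate 3 the fall was 0.18 with adjusted p = 0.0311. The call was lost without SNI replicate 1, 2 or 3 (adjusted p = 0.0905, 0.0611 and 0.130) and without SNI + G15 replicate 1 (adjusted p = 0.0584), with Hcn2 lower by 0.19 to 0.25 in those fits. Hcn3 differed by -0.05 (SE 0.068, interval -0.20 to 0.11, adjusted p = 0.675) and by 0.02 without SNI + G15 replicate 3. Hcn4 differed by 0.18 (SE 0.111, interval -0.07 to 0.43, adjusted p = 0.291), and by 0.33 (adjusted p = 0.0503) without SNI replicate 3, the SNI library with the highest Hcn4 level. Without SNI + G15 replicate 3 its difference was 0.20 (adjusted p = 0.300). Of the 3 genes, Hcn2 alone had groups without overlap, as had 38.3% of all genes tested.

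The third comparison set SNI + G15 against sham and shares libraries with both others. Hcn2 was lower by 38.5%, a fall by 0.70 on the log2 scale (SE 0.075, interval -0.87 to -0.53, adjusted p = 4.85e-05). Called lower were 21.9% of genes and called higher 21.4%, and 3.94% of genes had a lower log2 fold change. Without SNI + G15 replicate 3 the fall was 0.65 (adjusted p = 9.55e-05). Hcn3 differed by 0.04 (SE 0.081, interval -0.14 to 0.22, adjusted p = 0.733) and Hcn4 by 0.13 (SE 0.079, interval -0.05 to 0.31, adjusted p = 0.215), values that were 0.12 and 0.16 without SNI + G15 replicate 3 (adjusted p = 0.228 and 0.159). For Hcn4 the FPKM of the groups did not overlap, as for 52.9% of genes tested. The level of Hcn2 in SNI + G15 was therefore farther from sham than that in SNI.

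**Figure D2:**
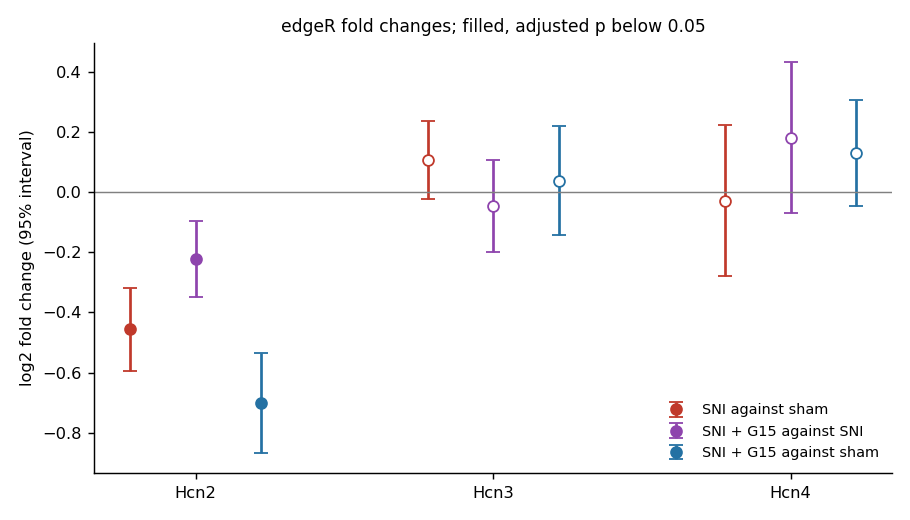
Log2 fold change of Hcn2, Hcn3 and Hcn4 (vertical axis) from edgeR in the 3 comparisons, with 95% intervals (n = 3 libraries per group); filled points have an adjusted p below 0.05. The 3 intervals of Hcn2 lie below 0 and those of Hcn3 and Hcn4 include 0.

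Because the subunits combine into channels of 4, the balance among the 3 transcripts was compared within each library, where depth and scaling cancel. The Hcn2 to Hcn3 ratio of FPKM was 5.72, 6.49 and 6.73 in sham, 4.34, 4.01 and 4.47 in SNI, and 3.62, 3.81 and 3.92 in SNI + G15 libraries. The 3 groups did not overlap in this ratio. Its mean log2 value was lower by 0.56 in SNI than in sham, by 0.17 in SNI + G15 than in SNI and by 0.74 in SNI + G15 than in sham. The Hcn2 to Hcn4 ratio was 21.2, 23.3 and 23.4 in sham, 18.2, 18.3 and 14.7 in SNI, and 12.2, 13.7 and 12.3 in SNI + G15 libraries, again without overlap. Its mean log2 value was lower by 0.41, 0.42 and 0.83 in the same order of comparisons. Each of these 6 differences gave p = 0.1 in a two-sided exact permutation test, the smallest p that 3 against 3 libraries allow, and 0.15 after Benjamini-Hochberg adjustment over the 9 ratios compared, so none could pass 0.05. Without SNI + G15 replicate 3 the Hcn2 to Hcn3 ratio was lower by 0.20 in SNI + G15 than in SNI and by 0.76 than in sham, and the Hcn2 to Hcn4 ratio by 0.39 and 0.80, all on the log2 scale. The Hcn3 to Hcn4 ratio lay between 3.13 and 4.55 over all libraries with overlapping groups, with log2 differences of 0.15, -0.24 and -0.09 (exact permutation p = 0.4, 0.3 and 0.3); without SNI + G15 replicate 3 the latter differences were -0.19 and -0.04.

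Put as shares of the summed FPKM of the 3 genes, Hcn2 made up 83.1 ± 1.12% in sham, 77.3 ± 0.564% in SNI and 74.5 ± 0.711% in SNI + G15 (SD, n = 3 each). Hcn3 made up 13.2 ± 0.961%, 18.1 ± 0.911% and 19.7 ± 0.640%, and Hcn4 3.68 ± 0.158%, 4.58 ± 0.592% and 5.86 ± 0.354%. The shares of Hcn3 and Hcn4 were higher in the injured groups, while their own levels did not pass the test. The sum fell with Hcn2 from a median of 88.1 FPKM in sham to 72.5 in SNI and 66.2 in SNI + G15. A share also moves with the level of the gene itself. Mean Hcn3 was 12.1 FPKM in sham and 13.3 in SNI, and mean Hcn4 was 3.37 in SNI and 3.79 in SNI + G15. These shares are of the 3 genes described and of transcripts, and say nothing of the subunits in the membrane.

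**Figure D3:**
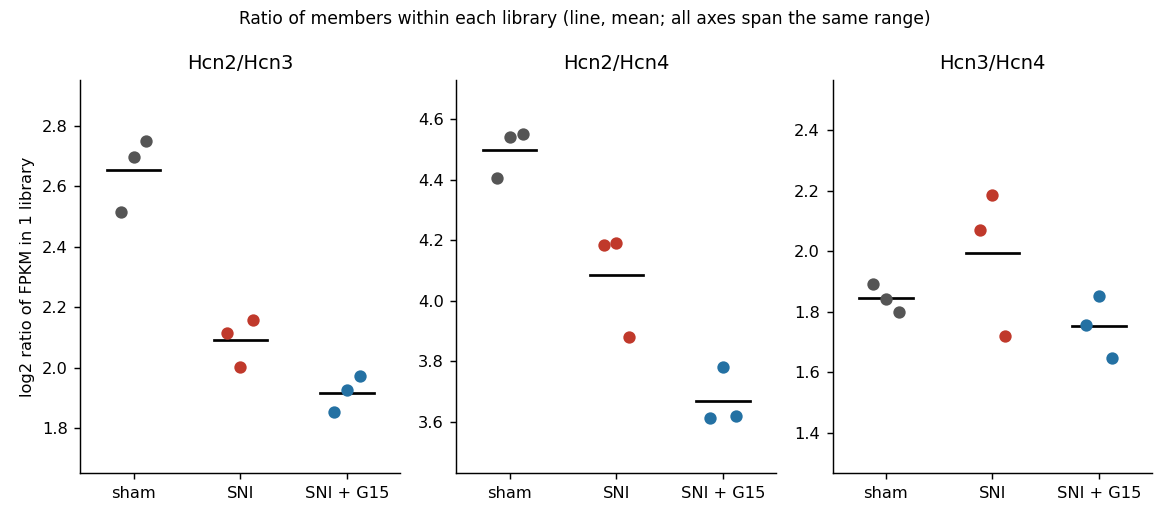
Log2 ratio of FPKM between members (vertical axes, each spanning the same range) in every library of the 3 groups, with lines at the means (n = 3). The ratios of Hcn2 to Hcn3 and of Hcn2 to Hcn4 step down without overlap from sham to SNI to SNI + G15, and that of Hcn3 to Hcn4 overlaps among groups.

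In bulk tissue, fewer cells of a type and less RNA per cell cannot be told apart, so the markers of DRG cells are given beside these changes. Neuronal markers moved in both directions between sham and SNI, where 23.3% of all genes tested were called higher and 22.4% lower. Of 8 pan-neuronal markers 4 fell, namely Rbfox3 (-0.56), Snap25 (-0.45), Avil (-0.42) and Isl1 (-0.35, all log2 fold changes), and 2 rose, the peripherin gene Prph (0.28) and the tubulin gene Tubb3 (0.35), while Elavl4 and Uchl1 did not pass the test. The fall of Hcn2, 0.46, was inside the range of those 4, which were the markers that fell. Over all 8 the median log2 fold change was -0.21. Of 9 markers of small-diameter neurons 7 fell, among them Mrgprd (-0.58), the sodium channels Scn11a (-0.42) and Scn10a (-0.39), and Trpv1 (-0.37), with Calca (0.01) and P2rx3 (0.08) not passing. Of 8 markers of large-diameter neurons 4 fell, Nefh (-0.66), Pvalb (-0.63), Ldhb (-0.49) and Ntrk3 (-0.23), and Spp1 rose by 0.90.

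Against the mean log2 FPKM of the 8 pan-neuronal markers in the same library, Hcn2 was lower in SNI than in sham by 0.31, in SNI + G15 than in SNI by 0.20 and in SNI + G15 than in sham by 0.51. The groups did not overlap in any of the 3 (exact permutation p = 0.1, the smallest possible). On this scale Hcn3 was higher in SNI than in sham by 0.25 without overlap (exact permutation p = 0.1), and Hcn4 was higher in SNI + G15 than in sham by 0.32 without overlap (exact permutation p = 0.1). The remaining 4 differences of Hcn3 and Hcn4 were between -0.02 and 0.23, with overlapping groups.

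Other cells changed with injury as well. The shares of all genes called higher and lower were 23.3% and 22.4% in SNI against sham, and 7.98% and 7.25% in SNI + G15 against SNI. All 5 Schwann cell markers fell between sham and SNI, and their summed level went from 5085 to 5203 FPKM in sham to 2780 to 2838 FPKM in SNI libraries. Of 6 macrophage markers 5 rose, with a summed level of 46.0 to 51.4 FPKM in sham and 97.2 to 109.9 FPKM in SNI. With G15 all 5 fibroblast markers were higher than in SNI, with a summed level of 516.4 to 539.4 against 381.7 to 384.3 FPKM, as were 4 of 5 markers of smooth muscle and pericytes (88.6 to 94.6 against 62.9 to 69.7 FPKM). In that comparison, of the 9 small-diameter markers, Mrgprd (-0.42), Trpm8 (-0.24), Scn11a (-0.20) and Trpv1 (-0.18) fell and Calca rose by 0.24. Of the pan-neuronal markers Elavl4 (-0.19) and Snap25 (-0.13) fell and Prph rose by 0.10, and of the large-diameter markers Spp1 rose by 0.15. Satellite glia markers numbered 1 higher and 1 lower of 5 in each of these 2 comparisons, and the 2 skeletal muscle markers tested did not pass in either. The part of cell composition in the levels of Hcn2, Hcn3 and Hcn4 was not tested.

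Proteins that bind HCN channels or change their gating or surface level made up a list of 14 genes, of which 13 were tested. Between sham and SNI 4 were higher and 3 lower, as were 23.3% and 22.4% of all genes tested. The median log2 fold change of the list was -0.06 against 0.001 for all genes. Pex5l encodes TRIP8b, the main auxiliary subunit of HCN channels in brain. Its level was 17.4 to 18.1 FPKM in sham and 17.0 to 17.7 FPKM in SNI, and it passed in none of the 3 comparisons (log2 fold changes of -0.06, -0.14 and -0.22, adjusted p = 0.325, 0.354 and 0.0925). Kctd3, whose product binds HCN3 and raises its surface level, fell by 0.25 in SNI (14.1 to 14.7 against 12.3 to 12.8 FPKM, adjusted p = 0.00124), though its estimated reads were not whole in any library, so its value is uncertain where reads were split with other features. Kcne2, a small accessory subunit of potassium and HCN channels, was at 1.11 to 1.20 FPKM in sham and 0.70 to 0.91 FPKM in SNI, a log2 difference of -0.59 with adjusted p = 0.0513.

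The others on the list that passed in SNI against sham were Flna, a filamin that anchors channels to actin (0.34), the tyrosine kinase Src (0.25), the phosphatase Ptpra (0.12) and Lrmp (0.80), whose product acts on HCN4 gating, all higher, and Mrvi1 (-0.37) and the ubiquitin ligase Nedd4l (-0.15), both lower. With G15, Flna rose further by 0.17 and Nedd4l fell further by 0.27 (adjusted p = 0.00520), and the other 11 did not pass. Genes called higher and lower with G15 were 7.98% and 7.25% of all tested. Against sham, Kcne2 was lower in SNI + G15 by 0.89 (adjusted p = 0.00648) and Kctd3 by 0.40.

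Cyclic AMP and cyclic GMP are made by adenylyl and guanylyl cyclases. Of 14 such genes tested, 4 were higher and 3 lower in SNI than in sham. The shares over all genes were 23.3% and 22.4%, and 7.98% and 7.25% with G15 against SNI. Adcy4 (0.93), Adcy2 (0.45), Adcy8 (0.25) and Adcy7 (0.20) were higher, whereas Adcy5 (-0.30) and the guanylyl cyclase genes Gucy1a1 (-0.66) and Npr2 (-0.14) were lower. With G15 the edgeR test called 0 of the 14 against SNI, where 3 had an unadjusted p under 0.05, all lower, and DESeq2 called 1, Adcy1 (-0.28 with edgeR). Their median log2 fold change was -0.10.

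Phosphodiesterases break the cyclic nucleotides down, and all 18 genes listed were tested. Between sham and SNI 6 were higher and 6 lower. The shares over all genes were 23.3% and 22.4%, and 7.98% and 7.25% with G15 against SNI. The largest changes among those higher were of Pde3a (0.79), Pde7a (0.47), Pde8a (0.36) and Pde8b (0.26), and among those lower of Pde11a (-0.64), Pde4c (-0.46), Pde5a (-0.46) and Pde9a (-0.44). With G15, Pde5a rose by 0.48 from its lower level in SNI, while Pde4d (-0.32) and Pde1c (-0.22) fell. Pde4d encodes a phosphodiesterase specific for cyclic AMP and was lower by 0.78 in SNI + G15 than in sham.

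Of 11 effectors of cyclic AMP, 2 rose and 3 fell in SNI. The shares over all genes were 23.3% and 22.4%, and 7.98% and 7.25% with G15 against SNI. Rapgef3 (-0.57) and Rapgef4 (-0.54), which encode the exchange factors Epac1 and Epac2, fell, as did Prkaca (-0.37), a catalytic subunit of protein kinase A. The regulatory subunit genes Prkar2a (0.14) and Prkar1a (0.12) rose. With G15, 0 effectors were called higher by edgeR, 0 at an unadjusted p under 0.05 and 0 by DESeq2, whereas 4 were lower: Rapgef4 (-0.23), Prkacb (-0.22), Prkaca (-0.14) and Prkar1b (-0.12). The median over the 11 was -0.12, against 0.006 for all genes.

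Receptors and G proteins that act on adenylyl cyclase were split in SNI, with 5 higher and 5 lower of 16 tested. The shares over all genes were 23.3% and 22.4%, and 7.98% and 7.25% with G15 against SNI. Ptger4, a prostaglandin E2 receptor coupled to Gs, rose most, from 3.18 to 3.60 FPKM in sham to 7.65 to 8.44 FPKM in SNI (log2 fold change 1.10, adjusted p = 4.32e-07). Adora2a (0.32), Gnai3 (0.31) and Ptgir (0.21) were also higher. Adora2b (-0.74), the serotonin receptor Htr7 (-0.59), Gnai1 (-0.24) and Gnao1 (-0.22) were lower, and Gnas, the gene of Gs itself, did not pass (-0.04). With G15, 4 of the 16 were lower and 0 higher, also 0 higher at an unadjusted p under 0.05 and 0 by DESeq2: Htr4 (-0.43), Ptger4 (-0.32), Gnai1 (-0.24) and Gnaz (-0.17).

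The channels nearest to HCN channels in sequence are the EAG-related potassium channels and the cyclic nucleotide-gated channels. Of 14 listed, only 4 potassium channel genes reached the filter. Of these Kcnh7 (-0.67), Kcnh6 (-0.67) and Kcnh2 (-0.55) fell in SNI, whereas Kcnh1 (0.10, adjusted p = 0.104) did not pass. Kcnh2 encodes the potassium channel known as ERG1. Its level was 58.8, 59.5 and 64.7 FPKM in the sham libraries in ascending order and 42.0 to 43.5 FPKM in SNI. With G15, Kcnh7 (-0.35) and Kcnh2 (-0.30) fell further, and Kcnh6 did not pass (-0.07). Among all genes tested, 23.3% were called higher and 22.4% lower in SNI against sham. With G15 against SNI these shares were 7.98% and 7.25%. The summed level of the 14 genes was 89.0 to 95.8 FPKM in sham, 66.8 to 67.7 FPKM in SNI and 50.7 to 60.2 FPKM in SNI + G15.

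Over the 6 lists, 44 of 76 genes passed between sham and SNI, of which 21 were higher and 23 lower, and 15 of 76 between SNI + G15 and SNI, 2 higher and 13 lower. The second count was also 15 without SNI + G15 replicate 3, and fell to 6, 4 and 6 without SNI replicate 1, 2 or 3. These lists are described by their counts, to be read against the 23.3% and 22.4% of all genes called higher and lower in the first comparison and the 7.98% and 7.25% in the second. Estimated reads were also not whole for other list and marker genes named here. This held in 9 libraries for Prkacb, Snap25 and Scn10a, in 8 for Pde3a and Mrgprd, and in 7 for Rapgef3 and Adcy5, among others. Values of such genes are uncertain where reads were split with other features.

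**Figure D4:**
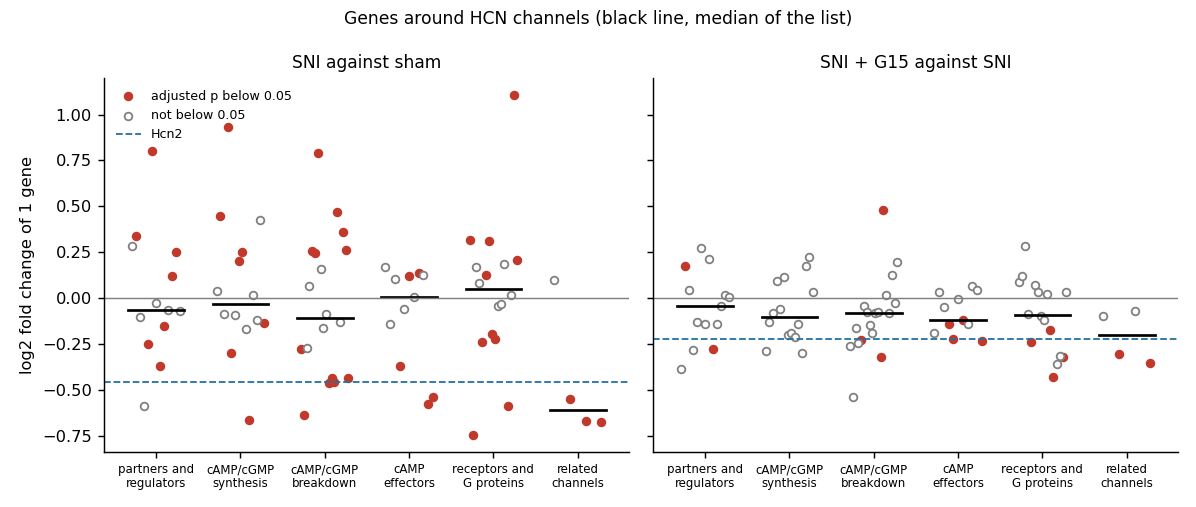
Log2 fold change (vertical axis) of each tested gene in the 6 lists around HCN channels, in SNI against sham (left) and SNI + G15 against SNI (right); red points have an adjusted p below 0.05, black lines are list medians and the dashed line is Hcn2. In the left plot red points lie on both sides of 0 in 5 of the lists, and in the right plot 13 of the 15 red points lie below 0.

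The genes whose log2(FPKM + 1) followed each member most closely over the 9 libraries were ranked by Pearson's r among 12634 genes with at least 1 FPKM in every library. Genes without an assigned symbol (names starting with LOC, AABR or RGD) were passed over. The 9 points share the 3 group differences, so a high r is mostly a like order of group levels. For Hcn2 they were Miga2 (r = 0.992), Vwa5b2 (0.992), Kcnh2 (0.991), Cnnm1 (0.990) and Vstm2b (0.990). Each of these 5 had its highest mean in sham and its lowest in SNI + G15, as with Vstm2b at 6.88, 3.61 and 2.65 FPKM. For Hcn3 they were Sesn2 (0.970), Lman1 (0.952), Tcp11l1 (0.951), Zfyve28 (0.950) and Prrc2b (0.945), each with its highest mean in SNI. For Hcn4 the values were lower, with Rab1b (0.877), Foxp4 (0.857), Armc5 (0.844) and Loxl3 (0.844). Between the members, r was -0.25 for Hcn2 with Hcn3, -0.25 for Hcn2 with Hcn4 and 0.23 for Hcn3 with Hcn4.

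The fall of Hcn2 in SNI against sham held under each of 14 alternatives in scaling, filter, test and libraries, with log2 fold changes from -0.50 to -0.38 by methods that scale to library size. Between SNI + G15 and SNI they ran from -0.27 to -0.18, all below 0.

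**Figure D5:**
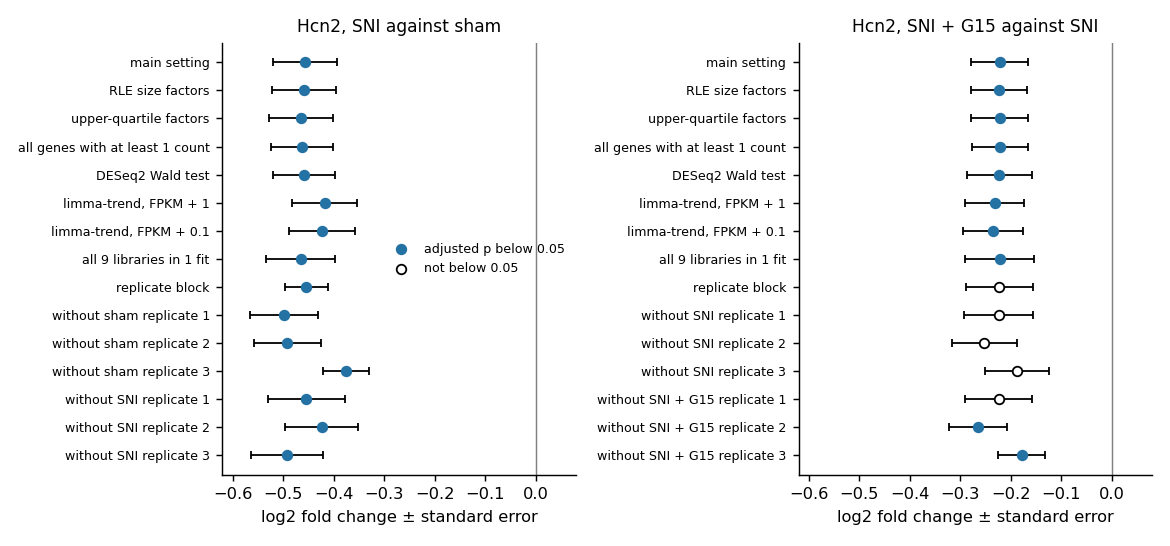
Log2 fold change of Hcn2 with its standard error (horizontal axis) under each setting named at the left of the plots, for SNI against sham (left) and SNI + G15 against SNI (right); filled points have an adjusted p below 0.05. Every point lies below 0, and in the right plot 5 points are open, for the fit with a replicate block and without SNI replicate 1, 2 or 3 or SNI + G15 replicate 1.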

How the data were processed

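DRG RNA of 9 rat libraries (3 sham, 3 SNI, 3 SNI + G15) was sequenced as 150 bp paired reads. For each gene and transcript, FPKM values (gene FPKM summed over transcripts) and estimated counts, which need not be whole, were deposited. The aligner and rat genome build are not given in the sources used here: the labels name only mouse builds, and their extraction text names macrophages, although tissue, organism and gene identifiers are of rat DRG. Columns headed Control were taken as sham, the remaining group. Correlation, principal component and plot tables were not used.

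The rounded estimates went into edgeR 4.0.16 (R 4.3.3; TMM scaling, quasi-likelihood, 2 groups per fit, Benjamini-Hochberg adjustment) over 14305 genes with FPKM of at least 1 in at least 1 library. The study's methods name DESeq2, used here as an alternative (1.42.0), as was limma 3.58.1 on log2 FPKM. Fits were tested on simulated data. Ratios between members were compared with exact permutation tests. Depth was 18484557 to 18756736 estimated reads per library.

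Members and gene lists were chosen with earlier results of these data known. Named were the members, Pex5l, Kctd3 and Kcne2, and up to 4 called genes per list, direction and comparison with the largest log2 change. Called markers were named too, as were the 5 genes with an assigned symbol most like each member. Some genes that this rule names are not reported here. Alternatives were other scalings, filters, tests and pseudocounts (1 and 0.1), all libraries in 1 fit, a replicate block and each library left out. Comparison with the mean of 8 pan-neuronal markers, and leaving out libraries for the list counts, were added after seeing the data.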

Additional observations from a re-analysis of the deposited data

How the results depend on the processing

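Against sham, Hcn2 kept its direction and call, in both SNI and SNI + G15, in all 14 alternatives that scale to library size. In SNI + G15 against SNI, Hcn2 stayed lower in all 14 (adjusted p = 0.00721 to 0.130 over these) and its call was lost in 5. With a replicate block the log2 fold change was -0.22 (adjusted p = 0.0796), and leaving out 1 library gave -0.27 to -0.18 (adjusted p = 0.0269 to 0.130). Hcn3 and Hcn4 passed under none of these alternatives in any comparison. Leaving out 1 library turned the sign of Hcn4 in SNI against sham (-0.178 to 0.0575), of Hcn3 in SNI + G15 against SNI (-0.0825 to 0.0217) and of Hcn3 in SNI + G15 against sham (-0.0160 to 0.118). Relative to 8 pan-neuronal markers, where no p under 0.1 is possible, Hcn2 differed by -0.31, -0.20 and -0.51 in the order of the comparisons, and Hcn4 in SNI against sham by 0.10, a turned sign. The cause was not tested. Replicate numbers did not pair the libraries: of 9 same-number correlations of deviations from group means, 0 were above 0.1 (-0.12 to 0.09). The block lowered the count of called genes of the 6 lists in SNI + G15 against SNI from 15 to 9 (4 to 15 with 1 library left out, an alternative chosen after seeing the data) and that of all genes from 2179 to 1292; without SNI replicate 1, 2 or 3 the latter was 1098, 925 and 893, where the SNI arm held 2 libraries. Hcn4 rested on 221 to 298 estimated reads per library and 3 libraries per group.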
